A study of Mus musculus with 7 samples.

Results

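The interstitial collagens described here are the products of 9 genes: Col1a1 and Col1a2 (type I), Col3a1 (type III), Col5a1 and Col5a2 (type V), Col11a1 (type XI), and Col6a1, Col6a2 and Col6a3 (type VI). All probe sets that the array's annotation table assigns to these genes alone were taken, which gave 17 of the 22690 probe sets on the array. Each of the 17 passed the filter on dim probe sets, a signal on 1 or more arrays above 45.6, the median over all arrays, which 14012 probe sets passed. The 2 Col11a1 probe sets passed it only through p53-null arrays, and the other 15 would have passed in either genotype.

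The study measured RNA of mouse embryonic fibroblasts (MEFs) on 7 Affymetrix arrays, 1 array for each group. The p53-/- cells, called p53-null here, lack the tumour suppressor p53 and were measured untreated and 24 h and 48 h into treatment with trichostatin A (TSA), which inhibits histone deacetylases. The p53-/- Dnmt1-/- cells, called p53-Dnmt1-null, also lack Dnmt1, the methyltransferase that copies DNA methylation at CpG sites to the new strand after replication. They were measured untreated, at 24 h and 48 h of TSA, and 2 weeks after TSA removal. Every group lacks p53, so no array stands for cells with p53. The sources used here give neither the dose of TSA nor the length of exposure before removal. The labels name no separate cultures or embryos, so the loss of Dnmt1 cannot be told apart from other differences between the cell populations, and a p-value here measures only the spread between single arrays.

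Collagens are secreted proteins whose chains wind into a triple helix. Types I and III form the bulk of the banded fibrils of skin, tendon and stroma. Types V and XI are minor fibril-forming collagens that copolymerise with major ones and help to start a fibril and to set its diameter. Type I is usually a heterotrimer of its alpha 1 and alpha 2 chains, and type VI is assembled from its alpha 1, alpha 2 and alpha 3 chains into beaded microfilaments near the cell surface. Fibroblasts are the main producers of these proteins in connective tissue.

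Stretches just upstream of 5 genes are shown, picked to span types I, III, V and VI and the range of CpG content among genes that were all lower in one genotype. The RefSeq promoter table (GRCm38.p6) matched 7 of the 9 genes. Col1a1 and Col5a2 were not among them, and Col6a2 and Col11a1 are given by counts. Each window ran from 250 bases before to 50 bases after an annotated start, and the bases printed end before the gene's first annotated base. They are written 5′ to 3′ on the strand of the gene with CpG dinucleotides in capitals.
Col1a2, chr6:4505368-4505617, plus strand: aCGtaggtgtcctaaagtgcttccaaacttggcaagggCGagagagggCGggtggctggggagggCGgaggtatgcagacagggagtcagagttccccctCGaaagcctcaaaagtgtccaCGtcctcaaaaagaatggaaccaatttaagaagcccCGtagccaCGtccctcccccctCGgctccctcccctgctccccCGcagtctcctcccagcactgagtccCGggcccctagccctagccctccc
Col3a1, chr1:45311288-45311537, plus strand: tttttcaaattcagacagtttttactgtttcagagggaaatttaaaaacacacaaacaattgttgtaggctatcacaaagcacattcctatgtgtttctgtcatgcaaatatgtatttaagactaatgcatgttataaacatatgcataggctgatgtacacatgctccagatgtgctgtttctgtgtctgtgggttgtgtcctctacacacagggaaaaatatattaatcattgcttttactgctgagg
Col5a1, chr2:27886175-27886380, plus strand: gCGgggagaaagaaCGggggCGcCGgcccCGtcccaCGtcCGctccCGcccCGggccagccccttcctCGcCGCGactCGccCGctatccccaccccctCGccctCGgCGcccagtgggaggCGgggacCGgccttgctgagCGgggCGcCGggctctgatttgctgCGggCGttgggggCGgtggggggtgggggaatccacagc
Col6a1, chr10:76726045-76726294, minus strand: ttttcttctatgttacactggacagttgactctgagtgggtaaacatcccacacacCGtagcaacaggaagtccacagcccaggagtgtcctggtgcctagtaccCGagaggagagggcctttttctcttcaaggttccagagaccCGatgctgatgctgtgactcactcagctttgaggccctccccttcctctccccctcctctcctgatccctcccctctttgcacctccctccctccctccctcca
Col6a3, chr1:90844002-90844221, minus strand: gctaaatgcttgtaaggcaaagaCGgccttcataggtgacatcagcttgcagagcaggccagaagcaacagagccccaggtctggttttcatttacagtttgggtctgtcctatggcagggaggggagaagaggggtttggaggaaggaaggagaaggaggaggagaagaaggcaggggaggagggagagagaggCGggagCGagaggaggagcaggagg
The Col5a1 window held 34 CpG sites and the Col1a2 window 13, against a median of 7 over 32851 windows of the same length. The Col3a1 window held 0, those of Col6a1 and Col6a3 held 3 each, and that of Col11a1 held 9. Col6a2 had 2 windows, with 16 and 6. Of all windows, 92.3% held fewer CpG sites than that of Col5a1, 62.1% fewer than that of Col1a2 and 23.3% fewer than those of Col6a1 and Col6a3. Windows were searched on both strands for 3 motifs. The letters TATAAA, found in 13.6% of all windows, were present in that of Col3a1. The letters CCAAT, found in 37.4%, were present in those of Col1a2 and Col11a1. The letters GGGCGG, found in 35.7%, were present in those of Col1a2, Col5a1, Col6a2 and Col11a1. GGGCGG holds a CpG itself. These are matches of letters, and DNA methylation was not measured on the arrays.

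The deposited arrays had the same 2% trimmed mean, and their median signals lay between 41.9 and 48.8. The ratio of the 3′ to the 5′ control probe set was 1.057 to 1.228 for Actb and 0.834 to 0.906 for Gapdh. The 18S ribosomal RNA control stood out at 24 h of TSA in p53-Dnmt1-null cells, with a signal of 2549.1 against 93.6 to 1292.1 on the other arrays. It was also higher without Dnmt1 in each matched pair. Untreated, at 24 h and at 48 h it gave 688.1, 2549.1 and 1292.1 against 194.0, 337.5 and 228.7 in p53-null cells. The part of this in the genotype differences was not tested. Dnmt1 itself gave 695.6, 384.4 and 308.2 in p53-null cells untreated, at 24 h and at 48 h, and 206.5, 74.0, 109.5 and 123.2 in p53-Dnmt1-null cells untreated, at 24 h, at 48 h and after removal. The labels do not say which part of the gene is deleted, so this signal is no full check of them. The 10 fibroblast markers summed to 18364.8 to 21673.1 on the p53-null arrays and 8881.9 to 14182.3 on the p53-Dnmt1-null arrays. Of these, 8 were lower by the genotype test described next (1 had passed the filter only through p53-null arrays), while Vim and Fn1 did not pass it. The 10 epithelial and mesothelial markers, keratins and Cdh1 among them, summed to 152.1 to 423.0 and to 10893.0 to 19193.8, and all 10 passed the test as higher without Dnmt1, 8 of them after passing the filter only through p53-Dnmt1-null arrays. Of the markers that passed the filter, 3 of 3 for macrophages were higher (summed signal 96.3 to 139.5 against 180.4 to 406.6). For muscle 2 of 5 were higher and 1 lower, and the 1 for endothelium was not called. Of those called higher, 1 macrophage marker and the 2 muscle markers had passed the filter only through p53-Dnmt1-null arrays, which favours such a call. Over all tested probe sets the shares were 17.6% higher and 19.3% lower. The part of these marker differences in the collagen results was not tested, and in such bulk samples fewer cells of a type and less RNA per cell cannot be told apart.

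The first question was how the loss of Dnmt1 on a p53-null background went with the collagen RNAs. All 17 probe sets were lower in p53-Dnmt1-null cells, and none was higher. The difference was tested with limma on log2(signal + 11.4) over the 6 arrays matched for time, with an adjusted p under 0.05 over all 14012 probe sets as the threshold. Of all probe sets tested, 19.3% were called lower and 17.6% higher. The median difference was -2.55 on the log2 scale over the 17 probe sets and 0.02 over all those tested. For each of the 17, all 4 p53-Dnmt1-null signals were below all 3 p53-null signals, a separation that 18.8% of the tested probe sets showed. A difference of at least 2-fold at all 3 matched times was met by 16 of the 17, against 6.01% of all tested. The exception was a Col1a1 probe set with -0.85 at 48 h. Fold changes are on the log2(signal + 11.4) scale, which understates those of dim probe sets.

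**Figure D1:**
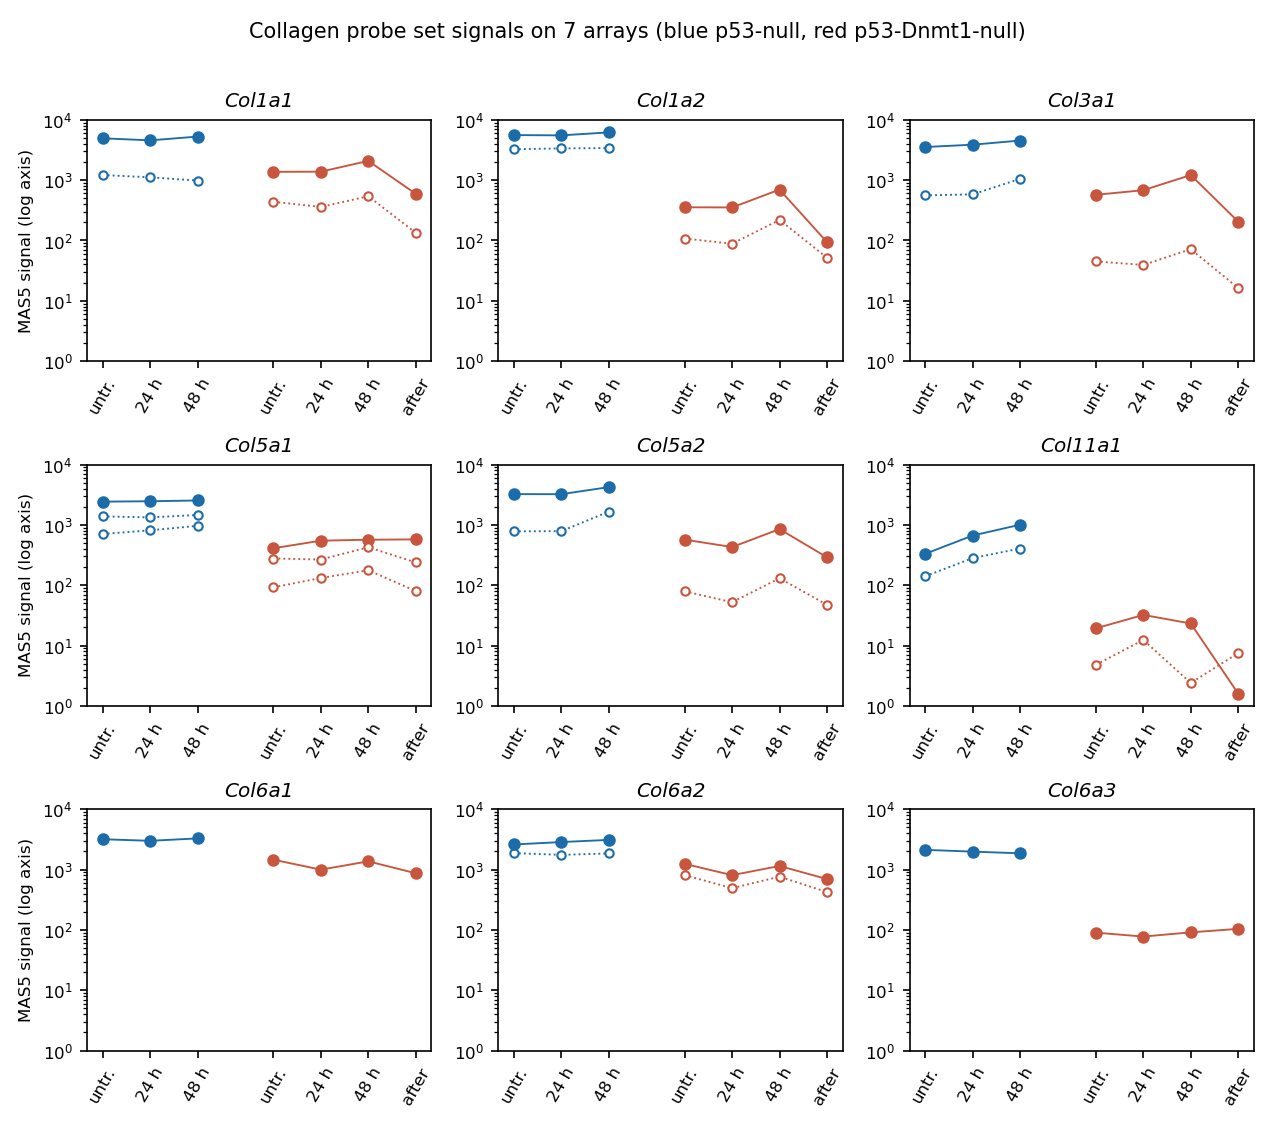
MAS5 signal (log axis) of each collagen probe set on the 7 arrays, blue for p53-null and red for p53-Dnmt1-null cells, with filled points for the probe set of highest mean log2 value and open points for the other probe sets of the gene. In every panel all blue points of a probe set lie above its red points, and each point is 1 array.

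Type I collagen showed unequal differences of its chains. The brighter Col1a1 probe set (1423669_at), for the alpha 1 chain, gave 4928.2, 4556.8 and 5258.6 in p53-null cells untreated, at 24 h and at 48 h, and 1371.7, 1379.1 and 2080.1 in p53-Dnmt1-null cells at the same times. The after-removal array gave 593.0, the lowest of the 7. The genotype difference was -1.63 ± 0.11 (SE, 3 matched pairs of arrays), a 3.092-fold difference, with a limma adjusted p of 1.646e-05. Each SE given is limma's, which borrows spread from all tested probe sets, so it is not that of the 3 pairs alone. The other Col1a1 probe set (1455494_at) differed by -1.30 ± 0.18 (adjusted p = 0.0007063).

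Col1a2, for the alpha 2 chain, gave 5572.0, 5510.7 and 6171.0 on the p53-null arrays and 354.6, 352.3, 696.2 and 93.9 in p53-Dnmt1-null cells, in the order untreated, 24 h, 48 h and after removal (1450857_a_at). The groups lay far apart, with the lowest p53-null signal 7.915 times the highest p53-Dnmt1-null signal. The highest signals of any probe set on the p53-null arrays were 6303.5, 6664.8 and 6432.2 in the same order. Whether signals so near the top are compressed was not tested. The genotype difference was -3.66 ± 0.17 (SE), or 12.65-fold, with an adjusted p of 2.01e-06. The second probe set (1423110_at) gave 3247.0, 3349.5 and 3397.0 against 107.7, 88.3, 219.0 and 51.9, a difference of -4.58 ± 0.22. The genotype difference of Col1a2 minus that of Col1a1 was -2.09 in the untreated pair, -2.21 at 24 h and -1.79 at 48 h, with a mean of -2.03 ± 0.21 (SD, n = 3 times). Over every pairing of the genes' probe sets and times it ran from -3.48 to -1.79, so each of the 12 values had the same sign.

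Col3a1, which codes for the homotrimeric type III collagen of reticular fibres, gave 3533.3, 3860.7 and 4519.1 on the p53-null arrays and 571.3, 680.0, 1213.1 and 205.3 on the p53-Dnmt1-null arrays (1427883_a_at). The p53-null arrays were all higher, and the p53-Dnmt1-null signals spread more widely, with the highest at 48 h and the lowest after removal. The genotype difference was -2.33 ± 0.15 (SE, adjusted p = 1.084e-05). The dimmer probe set (1427884_at) gave 558.9, 580.1 and 1048.8 against 44.9, 39.3, 71.7 and 16.3 and differed by -3.52 ± 0.18.

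For type V collagen, Col5a1 gave 2423.2, 2461.3 and 2535.0 on the p53-null arrays and 409.9, 546.7, 567.4 and 573.7 on the p53-Dnmt1-null arrays (1416740_at). Here the after-removal array was the highest of the p53-Dnmt1-null arrays. The genotype difference was -2.27 ± 0.14 (SE, adjusted p = 7.707e-06), and the other 2 probe sets of Col5a1 differed by -2.56 ± 0.17 and -2.10 ± 0.16. Col5a2 gave 3228.3, 3222.8 and 4219.2 against 569.0, 428.7, 850.5 and 290.3 (1422437_at), a difference of -2.55 ± 0.14 (adjusted p = 4.753e-06). Its second probe set differed by -3.44 ± 0.18. The representative probe sets of the type V chains gave a Col5a2 minus Col5a1 value of -0.28 ± 0.40 (SD, n = 3 times), within the spread over times. Over every pairing of the probe sets and times it ran from -1.81 to 0.31 (18 values), so whether these chains differ depends on the probe set. Col5a2 and Col3a1 are neighbours on chromosome 1, and their representative probe sets differed between genotypes by -2.55 and -2.33.

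Col11a1, a chain of type XI collagen best known from cartilage, gave 331.1, 664.7 and 1004.4 on the p53-null arrays and 19.3, 32.2, 23.2 and 1.6 on the p53-Dnmt1-null arrays (1418599_at). The second probe set (1449154_at) gave 140.4, 281.5 and 405.1 against 4.8, 12.4, 2.4 and 7.5. All p53-Dnmt1-null signals of both probe sets were below the pooled median of 45.6, so the size of the difference depends on the offset. It was -4.10 ± 0.26 (SE, adjusted p = 1.164e-05) and -3.92 ± 0.31 (adjusted p = 3.614e-05), and over the alternative settings it ran from -4.58 to -3.22 and from -5.30 to -2.54. Of the 4 cartilage and bone markers that passed the filter, 2 did so only through p53-null arrays and 1 only through p53-Dnmt1-null arrays. Between genotypes 1 was higher, 1 lower and 2 not called. Col2a1, the main cartilage collagen and the marker called lower, gave 218.2, 161.3 and 83.3 on the p53-null arrays and 3.6 to 7.6 in p53-Dnmt1-null cells. It had passed only through p53-null arrays, so the filter favours this call.

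Type VI collagen split by chain. Col6a1 gave 3184.5, 3000.2 and 3288.6 on the p53-null arrays and 1458.5, 997.9, 1370.1 and 870.0 on the p53-Dnmt1-null arrays (1448590_at), a difference of -1.32 ± 0.12 (SE, adjusted p = 6.275e-05). Col6a2 gave 2608.1, 2861.7 and 3106.1 against 1244.8, 808.8, 1148.7 and 696.8 (1452250_a_at), a difference of -1.43 ± 0.15 (adjusted p = 0.0001385). Its second probe set gave -1.43 ± 0.15 as well. Col6a3 gave 2124.7, 1984.5 and 1863.6 against 90.2, 77.7, 91.3 and 104.2 (1424131_at). Its groups lay farther apart than those of any other of the 17 probe sets, with the lowest p53-null signal 17.88 times the highest p53-Dnmt1-null signal, and the difference was -4.36 ± 0.16 (adjusted p = 8.512e-07).

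Set against each other, the Col6a2 and Col6a1 differences were apart by -0.11 ± 0.15 (SD, n = 3 times), within the spread over times. These genes are neighbours on chromosome 10. The genotype difference of Col6a3, a gene on chromosome 1, minus that of Col6a1 was -3.04 ± 0.20 on the log2 scale, and minus that of Col6a2 it was -2.93 ± 0.36, both far beyond the spread over times. Only 1 probe set measured Col6a3 and only 1 Col6a1.

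Ordered by the representative probe set of each gene, the genotype differences ran from Col6a3 (-4.36) through Col11a1 (-4.10), Col1a2 (-3.66), Col5a2 (-2.55), Col3a1 (-2.33), Col5a1 (-2.27), Col1a1 (-1.63) and Col6a2 (-1.43) to Col6a1 (-1.32). The SD over the 3 times was largest for Col11a1 (0.71) and smallest for Col6a3 (0.15). Within the run from Col6a3 to Col1a2, neighbours in this order did not differ beyond those SDs (0.15 to 0.71). The same held from Col5a2 to Col5a1 (0.22 to 0.38) and from Col1a1 to Col6a1 (0.23 to 0.37). The widest step between neighbours lay between Col1a2 and Col5a2. The 2 probe sets of Col3a1 were apart by more than that step. The second Col1a2 probe set (-4.58) differed by more than that of Col6a3. The top and the middle of the order therefore depend on which probe set stands for a gene.

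**Figure D2:**
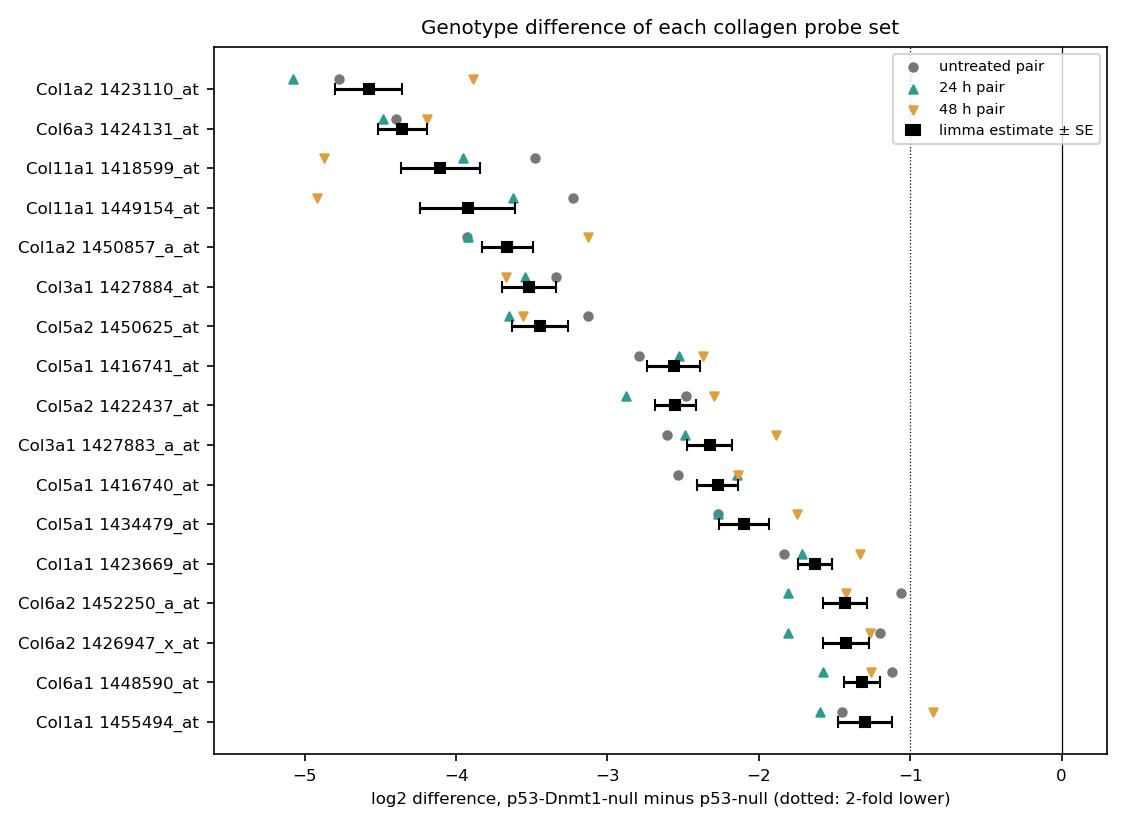
Log2 difference between genotypes of the 17 collagen probe sets, with small markers for the untreated, 24 h and 48 h pairs and squares for the limma estimate over the 3 pairs. Bars show limma's SE, which borrows spread from all tested probe sets. All markers lie left of 0, and all but the 48 h marker of 1 Col1a1 probe set lie left of the dotted 2-fold line.

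The second question was whether TSA moved the collagens in either genotype. No collagen probe set passed the limma test. In p53-null cells 0.0% of the 14012 probe sets were called (0 probe sets, with 1206 at an unadjusted p under 0.05, 2 of them collagens), in p53-Dnmt1-null cells 0.0% (1136 unadjusted, none a collagen), and for the difference between genotypes in the TSA response 0.0% (480 unadjusted, none a collagen). With TSA averaged over genotypes limma called 2 probe sets (0.0143%), neither a collagen. The median TSA difference over the 17 probe sets was 0.07 for p53-null and 0.21 for p53-Dnmt1-null cells, beside 0.03 and -0.03 over all tested. By size, 0 of the 17 were at least 2-fold higher at both times in p53-null cells (1.51% of all tested) and 0 of the 17 in p53-Dnmt1-null cells (1.71%).

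The 2 unadjusted values in p53-null cells belonged to Col11a1. Its signal at 24 h was 1.974-fold and at 48 h 2.966-fold the untreated one, and the second probe set gave 1.93-fold and 2.744-fold. The untreated array was the lowest of the 3 in both probe sets. The limma difference was 1.27 ± 0.35 (SE) with an adjusted p of 0.4155 (0.3672 to 0.6463 over the alternatives), and 1.20 ± 0.43 with 0.5049, so neither passed. In p53-Dnmt1-null cells the same differences were 0.34 ± 0.35 and 0.16 ± 0.43, and the test of the difference between genotypes gave an adjusted p of 0.9955 for both.

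At 48 h alone, 3 of the 17 were at least 2-fold higher than untreated in p53-null cells, against 4.63% of all tested. These were both Col11a1 probe sets and the dimmer Col5a2 probe set (1450625_at), at 780.5 untreated, 786.8 at 24 h and 1657.3 at 48 h. The brighter Col5a2 probe set was 1.306-fold higher. In p53-Dnmt1-null cells 1 of the 17, Col3a1 (1427883_a_at) at 2.101-fold, met the rule at 48 h, against 2.82%.

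In p53-Dnmt1-null cells the collagens were mostly higher at 48 h than at 24 h, a comparison added after the values were seen and with no test, since each time is 1 array. Of the 17, 15 were above 0, with a median log2 difference of 0.59 beside 0.05 over all tested. At least 1.5-fold higher were 9 of the 17, against 13.6% of all tested. In p53-null cells 15 of the 17 were also above 0, with a median of 0.16 beside 0.03 over all tested. There 3 were at least 1.5-fold higher, against 7.32%. The ratio of 48 h to 24 h in p53-Dnmt1-null cells was 1.946 and 2.311 for the probe sets of Col1a2, 1.958 and 2.23 for those of Col5a2, and 1.771 and 1.639 for those of Col3a1. It was 1.369 for Col6a1 and 1.153 for Col6a3. Col11a1 went the other way, with 0.7936 and 0.5798 between dim signals. The 24 h array was the one with the highest 18S signal, and the part of this in the difference was not tested.

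The last question was where the collagens stood 2 weeks after TSA removal in p53-Dnmt1-null cells. The after-removal signal was the lowest of the 7 arrays for 14 of the 17 probe sets, against 29.2% of all tested. The others were 1 probe set each of Col5a1, Col6a3 and Col11a1. All 17 were lower on every p53-Dnmt1-null array than on any p53-null array, which does not hold for all tested. The count of 14 therefore partly repeats the genotype difference. The after-removal array also had the highest Actb 3′ to 5′ ratio of the 7 (1.228), the lowest 18S signal (93.6) and the lowest median (41.9). The part of these in the collagen values was not tested. Against the untreated array, 6 of the 17 were at least 2-fold lower (8.44% of all tested). They were both Col1a1 probe sets, at 2.288-fold and 3.087-fold lower, 1 Col1a2 probe set at 3.476-fold, both Col3a1 probe sets at 2.689-fold and 2.032-fold, and 1 Col11a1 probe set at 2.362-fold. The other Col1a2 probe set was 1.882-fold lower. The other Col11a1 probe set had a difference of 0.22, and both were dim.

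Types I and III held 5 of these 6 probe sets, and type VI held none. Col6a1 differed from untreated by -0.74, Col6a2 by -0.83 and -0.91, and Col6a3 by 0.19. The 3 Col5a1 probe sets gave 0.47, -0.18 and -0.21, so they did not share a sign. The median over the 17 was -0.91, beside -0.06 over all tested. By limma no collagen probe set passed: 2 of the 14012 were called (0.0143%), and 8 collagen probe sets were among the 2630 at an unadjusted p under 0.05, with a lowest adjusted p of 0.1179.

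Against ongoing TSA, the mean of 24 h and 48 h, limma called 5 of the 17 lower after removal, beside 7.63% of all tested. Col1a1 differed by -1.497 ± 0.26 (SE, adjusted p = 0.0169) and -1.64 ± 0.32 (0.02232) in its 2 probe sets. Col1a2 (1450857_a_at) differed by -2.27 ± 0.37 (0.01466), Col3a1 (1427883_a_at) by -2.09 ± 0.34 (0.01422) and Col11a1 (1418599_at) by -1.58 ± 0.35 (0.02814). The second probe sets of Col1a2 (-1.26 ± 0.46, adjusted p = 0.09214), Col3a1 (-1.23 ± 0.44, 0.08974) and Col11a1 (0.06 ± 0.43, 0.9343) did not pass. The signals behind the Col11a1 call, 1.6 after removal against 32.2 and 23.2, were all below the pooled median of 45.6. That probe set had passed the filter only through p53-null arrays. The size rule, at least 2-fold lower than at both times, was also met by 5 of the 17 (8.66%). With no filter on dim probe sets none of the 5 passed, and with the offset at the pooled median 4 collagen probe sets did. Over the alternative settings the highest limma adjusted p-values of the 5 were 0.06912, 0.0661, 0.06551, 0.06404 and 0.1615, in the order above. The test rests on a single after-removal array that is assumed to vary like the pairs of TSA arrays.

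Set against untreated p53-null cells, the after-removal cells had 53.02-fold and 51.48-fold less Col1a2 signal in the 2 probe sets. The corresponding values were 8.173-fold and 8.43-fold for Col1a1, and 16.36-fold and 20.59-fold for Col3a1. They were 4.161-fold, 7.848-fold and 5.567-fold for Col5a1, and 10.74-fold and 13.47-fold for Col5a2. For type VI they were 3.626-fold for Col6a1, 3.699-fold and 4.328-fold for Col6a2, and 18.48-fold for Col6a3. Those of Col11a1, 26.35-fold and 8.032-fold, lay far apart and rest on dim after-removal signals. All these values are between 2 single arrays. No collagen signal of the after-removal array reached the range of the p53-null arrays.

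**Figure D3:**
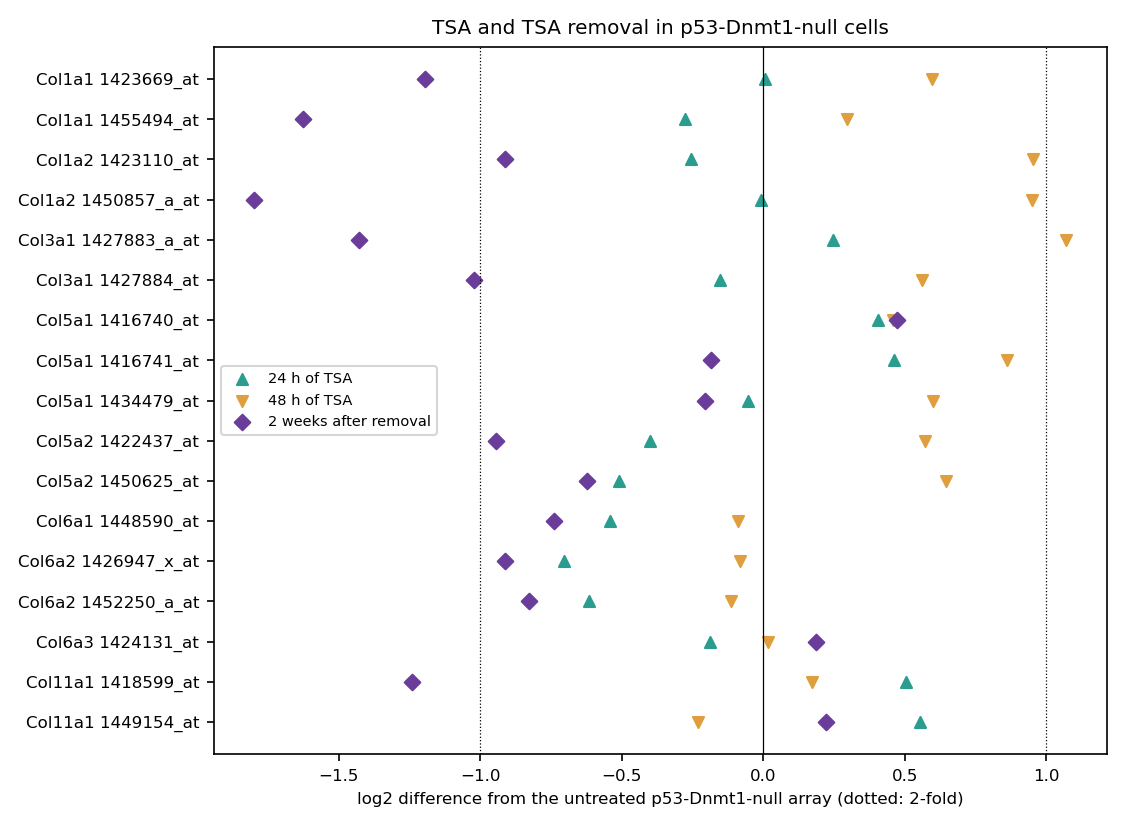
Log2 difference of each collagen probe set of p53-Dnmt1-null cells from the untreated array, for 24 h and 48 h of treatment and for 2 weeks after removal, 1 array each, with dotted lines at 2-fold. The 6 after-removal diamonds left of the 2-fold line belong to Col1a1, Col1a2, Col3a1 and Col11a1, and those of Col6a3 and of 1 probe set each of Col5a1 and Col11a1 lie right of 0.

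The other genes of collagen biology were read from lists that had been drawn up with earlier results of these data known, with 1 probe set per gene and the genotype test over all 14012 probe sets. Beside each count stand the shares of all tested probe sets called lower (19.3%) and higher (17.6%). A gene that passed the filter only through p53-null arrays is favoured by the filter to come out lower in the other genotype, and such genes are counted in each list. Among other collagens 14 of 27 genes passed the filter, 2 of them only through p53-null arrays, and 9 were lower, 1 higher and 4 not called. The 2 genes that had passed only through p53-null arrays were both lower, and Col2a1 was 1 of them. Col12a1, a collagen that associates with type I fibrils, differed by -3.48 ± 0.23 (SE), Col10a1 by -3.35 ± 0.26 and Col2a1 by -3.23 ± 0.29. Col7a1, the anchoring fibril collagen of skin, was higher by 0.62 ± 0.19. Col8a1 was the one gene of this list at least 2-fold higher at both times of TSA, in p53-Dnmt1-null cells, from 27.9 untreated to 105.3 and 119.1, and its after-removal signal was 35.4.

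The next list held enzymes and chaperones that fold and modify procollagen in the endoplasmic reticulum, and also Mia3, Sec23a and Creb3l1, which are neither. Of its 21 genes 16 had a probe set and all 16 passed the filter, none of them through p53-null arrays alone. Of the 16, 10 were lower (19.3% of all tested), Mia3, Sec23a and Creb3l1 among them. None was higher (17.6%), and the list median was -0.66. P3h3 of the prolyl 3-hydroxylase family (-1.80 ± 0.19), the prolyl 4-hydroxylase chain P4ha1 (-1.72 ± 0.20) and the prolyl hydroxylation cofactor Crtap (-1.49 ± 0.15) had the largest differences. Of 14 procollagen processing and cross-linking genes listed, 10 had a probe set and 8 passed the filter, again none through p53-null arrays alone, with 6 lower (19.3% of all tested) and 1 higher (17.6%). The cross-linking oxidases Lox (-2.64 ± 0.19) and Loxl3 (-2.46 ± 0.22) and the procollagen proteinase enhancer Pcolce2 (-1.34 ± 0.23) were lower, and the transglutaminase Tgm2 was higher by 2.13 ± 0.22.

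Among fibril-organising proteins 11 of the 13 that passed the filter were lower (19.3% of all tested), 1 was higher (17.6%) and the list median was -2.17. Of the 11, 7 had passed only through p53-null arrays, so the count and the median are partly set by the filter. Postn, a matricellular protein that binds type I collagen, gave 1175.8, 1619.1 and 3814.6 on the p53-null arrays and 2.2 to 16.8 in p53-Dnmt1-null cells, a difference of -6.93 ± 0.37. The small leucine-rich proteoglycans Ogn (-5.04 ± 0.34) and Aspn (-4.82 ± 0.37) were also lower. Dcn, another collagen-binding proteoglycan, was higher by 2.20 ± 0.39. Dcn and Lum were at least 2-fold higher at both times of TSA in p53-null cells, Dcn from 73.8 to 234.2 and 551.8 and Lum from 100.5 to 257.5 and 318.2.

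Of the 8 receptor and uptake genes that passed the filter, among 12 listed, 7 were lower (19.3% of all tested), 1 of them after passing only through p53-null arrays, and 1 was higher (17.6%). The proteoglycan Cspg4 (-2.02 ± 0.24), the 1 gene that had passed only through p53-null arrays, was lower. So were the endocytic collagen receptor Mrc2 (-1.79 ± 0.23) and the fibrillar collagen receptor Ddr2 (-1.63 ± 0.20). Ddr1, the related receptor common in epithelia, was higher by 2.06 ± 0.19. Of 8 collagen-degrading proteases listed 4 passed the filter, 2 of them only through p53-null arrays. Among the lower ones were Mmp2 (-3.39 ± 0.17) and Mmp14 (-1.83 ± 0.14), and Ctsk (-3.17 ± 0.34), which had passed only through p53-null arrays.

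Of 25 regulators of collagen genes listed 20 passed the filter, 1 of them only through p53-null arrays and not among those called lower. Of the 20, 5 were lower, near the 19.3% of all tested, 1 higher (17.6%) and 14 not called, with a median of -0.13. The mesenchymal transcription factors Prrx1 (-4.44 ± 0.35) and Twist1 (-2.22 ± 0.29) and the growth factor Tgfb2 (-1.06 ± 0.24) were lower, and the transcription factor Cebpb was higher by 0.82 ± 0.15. Prrx1 was at least 2-fold higher at both times of TSA in p53-null cells, from 568.2 to 1186.1 and 1318.7. Ccn2, a TGF-beta target and matricellular protein, met the same rule in p53-Dnmt1-null cells, from 472.1 to 1681.0 and 967.4.

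**Figure D4:**
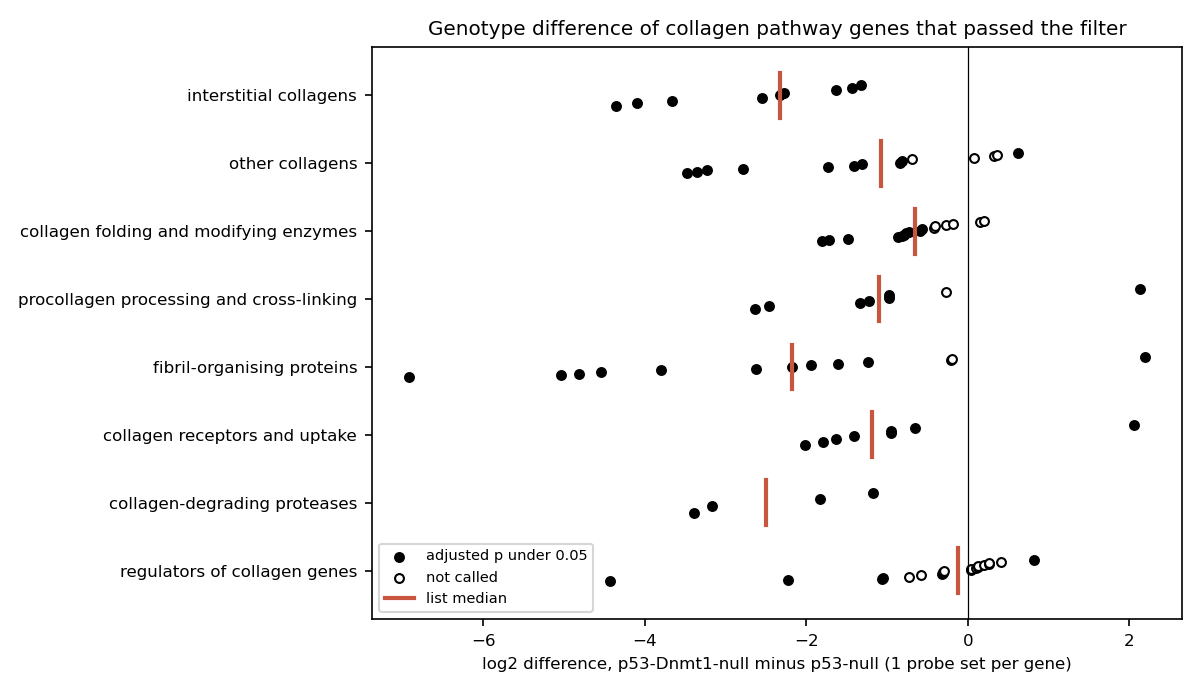
Log2 genotype difference, p53-Dnmt1-null minus p53-null, of each gene that passed the filter in the lists of collagen biology, 1 probe set per gene, with filled points for an adjusted p under 0.05, open points for genes not called and a bar at each list median. The points of the interstitial collagens run from -4.36 to -1.32, and the bar of the regulators lies near 0.

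The genes most like the collagens over the 7 arrays were found by the root mean square difference between centred log2 profiles, over 8301 genes. The mean collagen profile stood at 1.501, 1.61 and 1.80 on the p53-null arrays and at -1.10, -1.17, -0.70 and -1.94 on the p53-Dnmt1-null arrays. The closest genes were Armcx3 (0.18), Limch1 (0.19), Cxcl12 (0.19), Epb41l3 (0.19), Serpinf1 (0.20), Lxn (0.21), Meg3 (0.21) and Hopx (0.22), where the median gene was at 1.48. Among the collagens themselves this distance ran from 0.15 for Col5a2 to 0.91 for Col11a1. Cxcl12, which codes for a chemokine, gave 3071.6, 3191.7 and 4520.5 on the p53-null arrays and 430.7, 439.1, 635.8 and 199.1 in p53-Dnmt1-null cells. Serpinf1 gave 2913.8, 2676.6 and 3280.2 against 425.2, 392.0, 480.0 and 321.0.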

How the data were processed

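RNA of 7 mouse fibroblast samples was measured on 1 Affymetrix array each. The deposited values are linear signal intensities, which the authors made with MAS5 per the submitters' processing notes. The sources used here give neither the MAS5 version nor its scaling target. Gene names came from GEO's annotation of the array, which lists 21084 of the 22690 probe sets, 20393 of them with a single symbol. Only those name a gene, and 20364 symbols were updated to RefSeq.

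Signals were analysed as log2(signal + 11.4), the offset being the pooled 25th percentile. The 64 control probe sets were left out. Differences were tested with limma (version 3.58.1, R 4.3.3), eBayes following the intensity trend, and Benjamini-Hochberg adjustment over 14012 probe sets. The models were first checked on simulated data with known changes. The genotype model had time as a term and 2 residual degrees of freedom. TSA and removal used all 7 arrays, pooling 24 h with 48 h, also with 2, and TSA averaged over genotypes with 3. The number of arrays limits the precision.

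A gene is represented by its probe set of highest mean log2 value. All collagen probe sets are accounted for. In each list up to 3 genes called lower and 3 called higher with the largest differences are named, with genes at least 2-fold different at both times of TSA and the 8 closest in profile. Alternatives changed the offset, filter, normalization, unit, trend, times and fold. The collagens and lists were chosen with earlier results of these data known.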

Additional observations from a re-analysis of the deposited data

Results flagged for a closer look

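Col6a2 (1452250_a_at) went in opposite directions with TSA in the 2 genotypes. It differed from untreated by 0.13 at 24 h and 0.25 at 48 h in p53-null cells and by -0.62 and -0.11 in p53-Dnmt1-null cells, so the TSA difference in p53-Dnmt1-null minus that in p53-null cells was -0.56. Each value compares single arrays. The limma test of the difference between genotypes gave an adjusted p of 0.9955, so it did not pass, and the second Col6a2 probe set did not show opposite signs, with -0.10 and -0.02 in p53-null cells. No group held the 4 or more arrays that a test for an outlying array needs.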

How the results depend on the processing

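All 179 alternative values of the genotype differences of the 17 collagen probe sets kept their direction and an adjusted p under 0.05. With 1 probe set per gene, 9 of 9 collagens were called lower and 9 were at least 2-fold lower at all 3 times, and 4 rather than 9 were at least 1.5-fold higher at 48 h than at 24 h of TSA in p53-Dnmt1-null cells (2 with 2-fold as the limit). Without the 48 h pair, 1578 rather than 2701 probe sets were called lower and 1323 rather than 2464 higher over the whole array. The count of collagens higher with TSA in p53-null cells went from 0 to 1 with an offset of 1, 2 at 1.5-fold and 3 at 48 h only, and in p53-Dnmt1-null cells to 1 at 48 h only. At 1.5-fold, 12 collagen probe sets were lower after removal than untreated and 8 lower than under ongoing TSA. The 5 limma calls against ongoing TSA became 0 with no filter, which tests more dim probe sets. The cause was not tested. No paired analysis was possible because each group has 1 array and the labels give no replicate numbers, apart from the matching of arrays by time that the genotype model already holds.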
